A study of Homo sapiens with 6 samples.

Results

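LMO2 is a LIM-only protein, a small adaptor with no DNA-binding domain of its own. Its LIM domains bind LDB1, a dimerising adaptor that bridges transcription factor complexes. LDB1 is held stable by single-stranded DNA-binding proteins of the SSBP family, and on DNA the complex is anchored by an E protein (TCF3, TCF4 or TCF12) paired with TAL1 and by a GATA factor. LMO4 and the LIM-homeodomain proteins bind the same surface of LDB1 as LMO2, so the supply of LDB1 against the summed supply of LIM proteins is a known variable of this system. In blood and endothelial precursors the complex with TAL1 and GATA factors controls lineage genes.

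The genes described here are LMO2 and 9 genes of its complex: LMO4, LDB1, LDB2, SSBP2, SSBP3, TCF3, TCF4, TCF12 and TAL1. They were taken by symbol and make up 10 of the 27257 genes that had reads in at least 1 library. A further 48 genes of 7 partner lists were read beside them. RNA-seq had been done on U87MG, an established human glioblastoma cell line, 24 h after infection. The control cells received a control lentivirus (U87MG-control, n = 3) and the others human LMO2 in a lentiviral vector with the CMV promoter (U87MG-LMO2, n = 3). The samples were bulk cultures, so fewer expressing cells and less RNA per cell cannot be told apart, and neither can different infection rates. No source used here says whether the replicates were separate cultures, and the p-values measure only the spread between these libraries.

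Depth was 11428432 to 13537284 expected counts in U87MG-control and 14630627 to 17892955 in U87MG-LMO2, without overlap. Of 9 glial and neural markers 4 had a mean above 1 FPKM. These were VIM, an intermediate filament gene (5166 and 5366 FPKM in U87MG-control and U87MG-LMO2), CD44, a surface receptor (468 and 549), the neural stem cell filament gene NES (7.93 and 7.47) and the astrocyte glutamate transporter gene SLC1A3 (8.90 and 6.15). The other 5, which are GFAP, S100B, AQP4, SOX2 and OLIG2, had means below 1 FPKM. None of 8 blood markers and none of 5 endothelial markers had a mean above 1 FPKM over all libraries. By group, the blood marker CD34 in U87MG-LMO2 and the endothelial marker PECAM1 in U87MG-control had means just above 1 FPKM. Each U87MG-LMO2 value of CD34 lay above each control value, but CD34 did not pass the test across genes. The blood markers summed to 1.16 to 1.55 FPKM in U87MG-control and to 1.63 to 1.99 FPKM in U87MG-LMO2, and the endothelial markers to 2.08 to 2.35 and 1.82 to 2.18 FPKM. Lines were missing from the damaged table of replicate 3 of U87MG-LMO2, that of LDB2 among them. Its value there could be worked back from the authors' group mean, and was used in the sums of LDB1 and LDB2. LDB2 was left out of the tests across genes that used all libraries.

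LMO2 itself (chr11:33858576-33892289, GENCODE v29, GRCh38, as for the spans of the other genes), the gene that was overexpressed, was nearly silent in U87MG-control and became the most abundant of the 10 genes in all 3 U87MG-LMO2 libraries. It had 7, 11 and 5 counts in the controls (0.38, 0.46 and 0.24 FPKM) and 5459, 4503 and 14570 counts in U87MG-LMO2 (211.62, 192.56 and 507.93 FPKM). The groups were far apart, and replicate 3 of U87MG-LMO2 stood above the other two. LMO2 was higher by 9.70 ± 0.60 on the log2 scale (SE, n = 3 against 3, edgeR quasi-likelihood fit). As the gene put in by the vector, which passed the filter on low counts only through the U87MG-LMO2 libraries, LMO2 had to differ, and the value serves as the check of the labels. Adjusted p-values below are from the same edgeR test, by the Benjamini-Hochberg method over all genes tested.

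In U87MG-control the partners covered a wide range of levels. LDB1 was the highest at 88.8 ± 2.52 FPKM (SD, n = 3), followed by the E protein gene TCF3 at 77.4 ± 2.08, SSBP3 at 43.4 ± 3.74 and TCF12 at 19.2 ± 1.11. LMO4 stood at 6.81 ± 0.59, TCF4 at 3.04 ± 0.28 and SSBP2 at 2.71 ± 0.15 FPKM. At the low end were LDB2 at 0.88 ± 0.33 and LMO2 at 0.36 ± 0.11, with TAL1 below both. In this order only TCF4 and SSBP2 had ranges over the 3 controls that overlapped, and each other neighbouring pair was apart. Within each pair or trio the levels were uneven, with LDB1 far above LDB2, SSBP3 above SSBP2, and TCF3 above TCF12 and TCF4.

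**Figure D1:**
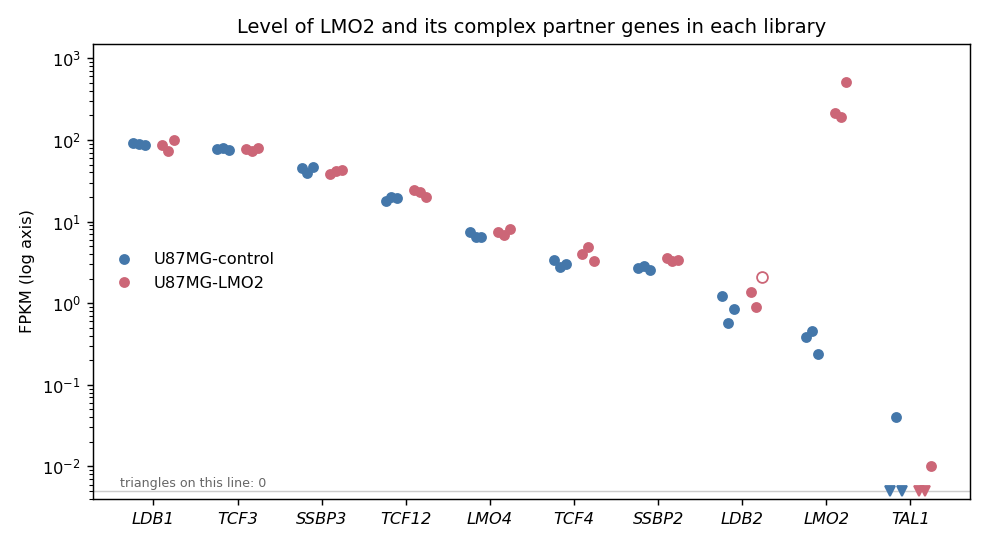
FPKM (log axis) of the 10 genes, ordered by their mean in U87MG-control; each point is 1 library (blue, U87MG-control; red, U87MG-LMO2), triangles mark 0, and the open circle is the LDB2 value of U87MG-LMO2 replicate 3 worked back from the authors' mean. LMO2 moved from 0.24 to 0.46 FPKM to 192.56 to 507.93 FPKM, while the partners kept their order of magnitude, apart from TAL1, which was too near 0 to tell.

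Promoter windows, the 250 bases before a RefSeq start (build GRCh38.p14), were available for 8 of the 10 genes, and none was used for LMO2 and LDB2. A set of 3 is printed because it spans the levels seen and the motifs that the DNA-bound complex reads: LDB1, the most abundant partner, SSBP3, the most abundant of the SSBP pair, and TAL1, the gene near 0. Each is read 5′ to 3′ on the minus strand, at chr10:102115003-102115252, chr1:54413491-54413740 and chr1:47232336-47232585. Capitals mark the E-box CANNTG, which reads the same on both strands, and GATAA on either strand (TTATC on the printed strand). No match of one overlapped a match of the other.
LDB1: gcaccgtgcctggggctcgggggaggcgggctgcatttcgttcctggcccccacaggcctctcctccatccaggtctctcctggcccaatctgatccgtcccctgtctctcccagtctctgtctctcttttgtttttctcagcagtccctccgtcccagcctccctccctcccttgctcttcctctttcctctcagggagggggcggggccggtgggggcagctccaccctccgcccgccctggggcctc
SSBP3: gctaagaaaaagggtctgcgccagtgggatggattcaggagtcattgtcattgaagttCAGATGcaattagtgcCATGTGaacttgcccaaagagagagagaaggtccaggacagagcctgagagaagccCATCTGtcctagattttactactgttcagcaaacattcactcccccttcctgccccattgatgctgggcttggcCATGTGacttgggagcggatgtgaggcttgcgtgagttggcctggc
TAL1: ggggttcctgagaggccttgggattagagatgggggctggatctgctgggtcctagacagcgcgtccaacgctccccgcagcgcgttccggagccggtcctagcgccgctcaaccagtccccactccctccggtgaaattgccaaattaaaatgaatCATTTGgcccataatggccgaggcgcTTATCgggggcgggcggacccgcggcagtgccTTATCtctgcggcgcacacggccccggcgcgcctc

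The LDB1 window held no match to either motif. It lies before a RefSeq start inside the GENCODE span of the gene, and the bases before that span were not examined. The printed SSBP3 window held 4 E-boxes and the printed TAL1 window 1 E-box and 2 GATAA matches. Each of these genes has a second RefSeq start, and its window (chr1:54406395-54406644 for SSBP3 and chr1:47231716-47231965 for TAL1) held neither motif, so the windows with matches are the ones shown. Of the 27 windows of the 8 genes, some of which overlap, 11 held an E-box and 3 held GATAA. Among all 35116 RefSeq windows of the same length 61.8% held an E-box and 20.4% held GATAA. The 27 windows ran from 34.4% to 79.6% GC, beside a median of 58.0% over all windows. The part of base composition in these shares was not tested. A match is a run of letters and was not tied to any measurement of binding here.

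Of the adaptor genes only LDB1 was in the test across genes on all 6 libraries, and it did not pass. LDB1 (chr10:102107560-102120453) had 91.23, 89.09 and 86.21 FPKM in U87MG-control and 86.89, 73.67 and 98.60 FPKM in U87MG-LMO2. The U87MG-LMO2 libraries lay on both sides of the controls, with replicate 2 lowest and replicate 3 highest of the 6. The log2 fold change of LDB1 was 0.02 ± 0.14 (SE, edgeR adjusted p = 0.930), with a 95% interval from 0.82-fold to 1.26-fold.

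LDB2, the paralog of LDB1 (chr4:16501541-16898809), had 1.23, 0.57 and 0.85 FPKM in U87MG-control and 1.37 and 0.89 FPKM in U87MG-LMO2 replicates 1 and 2, from 16 to 43 counts. The value worked back for replicate 3 was 2.10 FPKM, the highest of the 6, and the other U87MG-LMO2 values lay within or just above the control range. Without replicate 3 the log2 fold change of LDB2 was 0.39 ± 0.33 (SE, edgeR adjusted p = 0.458). LDB2 made up 0.636% to 2.09% of the summed FPKM of LDB1 and LDB2. The longest run of bases that the coding sequences of LDB1 and LDB2 share was 23.

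LMO4, the other LIM-only gene with a clear level (chr1:87328468-87348923), had 7.49, 6.52 and 6.43 FPKM in U87MG-control and 7.43, 6.82 and 8.0 FPKM in U87MG-LMO2. The groups overlapped. On the count scale the log2 fold change of LMO4 was 0.24 ± 0.13 (SE, edgeR adjusted p = 0.274).

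Of the SSBP cofactors, SSBP3 (chr1:54225432-54413479) had 44.74, 39.18 and 46.30 FPKM in U87MG-control and 38.04, 41.13 and 42.41 FPKM in U87MG-LMO2, with overlapping groups. Its log2 fold change was -0.01 ± 0.11 (SE, edgeR adjusted p = 0.961). SSBP2 (chr5:81413021-81751797) had 2.67, 2.87 and 2.58 FPKM in U87MG-control and 3.62, 3.30 and 3.37 FPKM in U87MG-LMO2. All 3 U87MG-LMO2 values of SSBP2 lay above all 3 control values. The log2 fold change of SSBP2 was 0.39 ± 0.13 (SE), which missed the threshold (edgeR adjusted p = 0.0946). SSBP2 supplied 5.28% to 6.83% of the summed SSBP2 and SSBP3 FPKM in U87MG-control and 7.36% to 8.69% in U87MG-LMO2. The expected count of SSBP2 was whole in 1 of 6 libraries (within 0.005), as happens where a counting program splits reads between genes.

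Of the E proteins, which bind E-boxes as dimers, TCF3 (chr19:1609290-1652605) had 76.51, 79.74 and 75.86 FPKM in U87MG-control and 77.38, 72.30 and 79.24 FPKM in U87MG-LMO2. These values overlapped, and the log2 fold change was 0.02 ± 0.10 (SE, edgeR adjusted p = 0.901, 95% interval 0.87-fold to 1.19-fold). TCF12 (chr15:56918623-57299281) had 17.98, 20.11 and 19.57 FPKM in U87MG-control and 24.08, 22.79 and 20.16 FPKM in U87MG-LMO2, without overlap. Its log2 fold change was 0.18 ± 0.09 (SE, edgeR adjusted p = 0.275). TCF4, known for its role in neural and B-cell development (chr18:55222331-55664787), had 3.34, 2.79 and 3.00 FPKM in U87MG-control and 4.01, 4.90 and 3.26 FPKM in U87MG-LMO2. On this scale replicate 3 of U87MG-LMO2 fell inside the control range, while on the CPM scale (counts scaled to library size by TMM) its 24.6 CPM lay just above the highest control, at 23.7 CPM. The log2 fold change of TCF4 was 0.44 ± 0.15 (SE, edgeR adjusted p = 0.112). Without U87MG-LMO2 replicate 3 it was 0.55 with an adjusted p of 0.0229, which passed the threshold. In that fit 1307 of 16392 tested genes were called higher and 1102 lower. With all libraries it was 760 and 443 of 16092. None of the TCF4 counts was whole.

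TAL1, the class II partner of the E proteins in the blood complex (chr1:47216290-47232220), had 0, 2 and 0 counts in U87MG-control and 0, 0 and 0.78 counts in U87MG-LMO2. All 6 libraries were under the 3 counts that a library with 0 counts still allows, so no fold is given and a change was not detectable at this depth. Only counting error enters this limit, as PCR copies of a molecule were not marked by identifiers.

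Of the 10 genes 8 were tested, 1 was called higher (LMO2, which had to differ) and 0 lower, beside 4.72% of all 16092 tested genes called higher and 2.75% called lower (7.48% in either direction). Without LMO2 the count was 0 of 7 in the edgeR test, 0 in DESeq2, and 2 of these 7 (SSBP2 and TCF4) had an unadjusted p under 0.05, as did 25.7% of all tested genes. The 7 partners had a median log2 fold change of 0.18 beside -0.01 over all tested genes. For 3 of the 7 (SSBP2, TCF4 and TCF12) the CPM ranges of the groups did not overlap, each with U87MG-LMO2 higher. The same held for 34.1% of all tested genes, 17.5% with U87MG-LMO2 higher and 16.6% with it lower. When each library's trend with GC content was removed, SSBP2 moved to 0.51 (adjusted p = 0.0601), TCF12 to 0.28 (0.0902), LDB1 to -0.17 (0.375) and TCF3 to -0.19 (0.198), so LDB1 and TCF3 have no settled direction. The part of GC content and of depth in these differences was not tested.

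**Figure D2:**
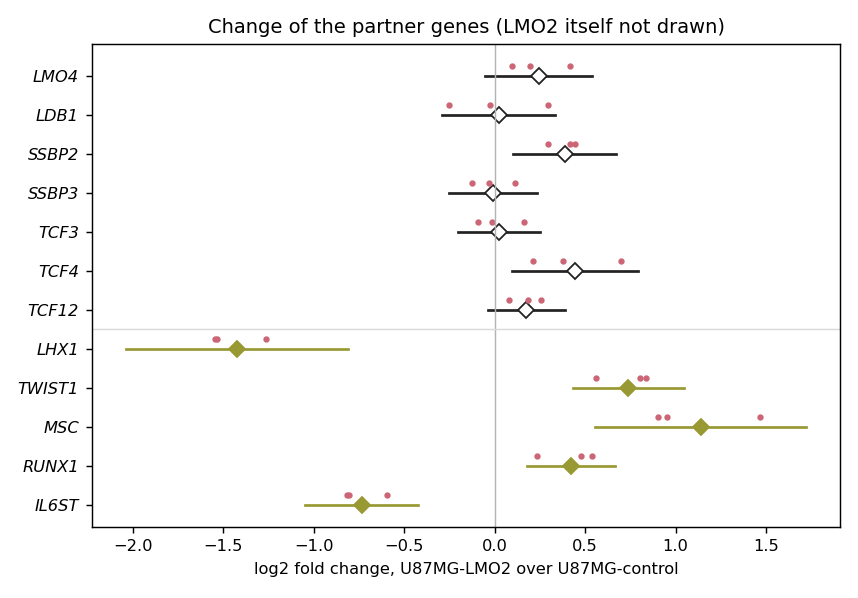
Log2 fold change of U87MG-LMO2 over U87MG-control from edgeR for 7 partners (black) and 5 genes of the partner lists (olive); diamonds are estimates (filled where the adjusted p was under 0.05), lines are 95% intervals, and red dots give each U87MG-LMO2 library's CPM over the control mean. The 7 partners lie between -0.01 and 0.44 with open diamonds, and the 5 filled genes lie further from 0 or, for RUNX1, at 0.42.

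The supply of partners was next set against the excess of LMO2, on the FPKM scale. In U87MG-control the LDB genes far outweighed the LIM genes: LDB1 plus LDB2 came to 92.46, 89.66 and 87.06 FPKM, and LMO4 with the 14 other LIM-only and LIM-homeodomain genes to 19.97, 20.06 and 21.96 FPKM. LMO4 held 29.3% to 37.5% of that pool and LHX6, a LIM-homeodomain factor of forebrain interneurons, 41.0% to 48.2%. LMO2 was 1.08% to 2.24% of all LIM-gene FPKM in the controls. The sum of all these LIM genes, LMO2 included, was 0.22, 0.23 and 0.26 times the LDB sum.

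In U87MG-LMO2 the order was turned over. LMO2 made up 89.9%, 90.9% and 95.8% of the LIM-gene FPKM, and the LIM sum was 2.67, 2.84 and 5.26 times the LDB sum. The LDB sum itself was 88.26, 74.56 and 100.70 FPKM, on both sides of the control values, and the other LIM genes came to 23.73, 19.21 and 22.25 FPKM. The last LDB sum holds the LDB2 value worked back from the authors' mean. LMO2 over LDB1 plus LDB2 was 0.0041, 0.0051 and 0.0028 in U87MG-control and 2.40, 2.58 and 5.04 in U87MG-LMO2. The difference of this ratio was 9.67 on the log2 scale (exact permutation test, 2-sided, p = 0.1, the smallest that 3 against 3 can give). As LMO2 was put in by the vector, this ratio had to differ, so the p-value is no independent evidence. In replicate 3 of U87MG-LMO2, LDB1 and LMO2 were both at their highest, and the ratio was still the highest of the 3.

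These ratios depend on the length that FPKM divides by. The tables gave LMO2 a mean transcript length of 1605 bases, while the coding part of the LMO2-202 transcript is 474 bases. Were the reads of the vector to come from the 474 coding bases alone, the LMO2 level per listed length would be 3.39 times higher. This factor is approximate, as FPKM did not follow the listed lengths exactly. With this factor LMO2 over LDB1 plus LDB2 would be 8.12, 8.74 and 17.1 in U87MG-LMO2, and a longer coding part would give smaller ratios. Which parts of the gene the vector holds is not given in the sources used here, and RNA levels do not give protein levels.

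**Figure D3:**
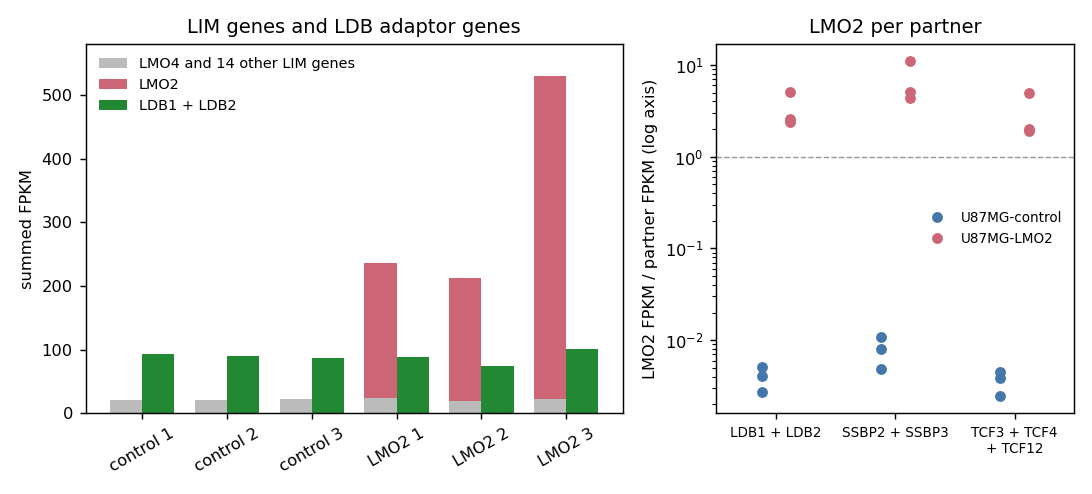
Left, summed FPKM per library of the LIM genes (grey, LMO4 and 14 others; red, LMO2) beside LDB1 plus LDB2 (green); right, LMO2 FPKM divided by the summed FPKM of each partner group (log axis, dashed line at a ratio of 1). The LIM bar is below the LDB bar in the 3 controls and above it in the 3 U87MG-LMO2 libraries.

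LMO4 was compared with the LDB pool in the same way. LMO4 over LDB1 plus LDB2 was 0.081, 0.073 and 0.074 in U87MG-control and 0.084, 0.091 and 0.079 in U87MG-LMO2. The difference was 0.16 on the log2 scale (exact permutation test, 2-sided, p = 0.2). On the CPM scale, with LDB1 alone, it was 0.23 and the groups did not overlap (exact permutation p = 0.1, the smallest possible), so a small rise of this ratio is neither shown nor set aside. LMO2 exceeded LMO4 by 28.5, 28.2 and 63.5 times in U87MG-LMO2, whereas in the controls it was at 0.037 to 0.071 of the LMO4 level.

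The SSBP and E protein pools were of the same order as the LDB pool. SSBP2 plus SSBP3 came to 47.41, 42.05 and 48.88 FPKM in U87MG-control and to 41.66, 44.43 and 45.78 FPKM in U87MG-LMO2, and the groups overlapped. The difference of the log2 sum was -0.07 (exact permutation test, 2-sided, p = 0.4). With SSBP4, a further cofactor of the family, the pool was 87.24 to 88.32 FPKM in U87MG-control and 78.32 to 92.48 FPKM in U87MG-LMO2, so SSBP4 was about as abundant as SSBP3. LMO2 exceeded SSBP2 plus SSBP3 by 5.08, 4.33 and 11.1 times in U87MG-LMO2.

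TCF3, TCF4 and TCF12 summed to 97.83, 102.64 and 98.43 FPKM in U87MG-control and to 105.47, 99.99 and 102.66 FPKM in U87MG-LMO2. The difference of the log2 sum was 0.04 (exact permutation test, 2-sided, p = 0.2). TCF3 supplied 77.1% to 78.2% of this pool in U87MG-control and 73.4%, 72.3% and 77.2% in U87MG-LMO2, and TCF12 supplied 18.4% to 19.9% and 22.8%, 22.8% and 19.6%. In U87MG-LMO2 replicate 3, the library with the most LMO2, both shares lay within the range of the controls. LMO2 exceeded the E protein pool by 2.01, 1.93 and 4.95 times in U87MG-LMO2.

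The tables also gave each gene a mean transcript length, weighted by the estimated share of its transcripts. This column was examined after its values were seen. For LMO4 it was 3304 to 3414 bases in U87MG-control and 3468 to 3526 bases in U87MG-LMO2, and for SSBP3 2333 to 2390 and 2399 to 2495 bases. For TCF12 it was shorter, with 4149 to 4355 bases in U87MG-control and 3907 to 4061 bases in U87MG-LMO2. For these 3 of 8 genes the groups did not overlap, as for 16.7% of the 11131 genes tested. None passed limma on log2 length (adjusted p = 0.308, 0.531 and 0.398), beside 0.0629% of all genes, and 10.3% of all genes had an unadjusted p under 0.05. Since FPKM divides by a length close to this one, the LMO4 level per length differed less between the groups than its counts did, and that of TCF12 more.

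**Figure D4:**
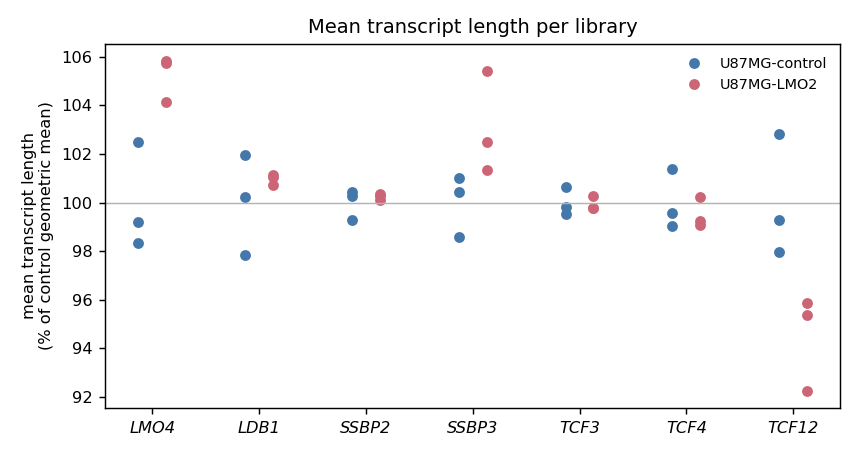
Mean transcript length of 7 partners in each library, as a percent of the geometric mean of the 3 controls (blue, U87MG-control; red, U87MG-LMO2). The red points of LMO4 and SSBP3 lie above the blue points and those of TCF12 below them, and the other 4 genes overlap.

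The 48 genes of the partner lists gave the setting of the complex in this line. Of these 28 were tested, 3 were called higher (4.72% of all tested genes) and 2 lower (2.75% of all), with a median log2 fold change of 0.02, and 14 had at most 3 counts in every library. GATA1, the blood partner of the complex, had no counts in any library and GATA2 stood at 0.05 and 0.07 FPKM in the 2 groups, while GATA3 was the highest GATA gene at 4.11 ± 0.88 and 4.09 ± 0.18 FPKM (SD, n = 3 in each). ERG and FLI1, endothelial and blood ETS factors, and KLF1, an erythroid factor, had means below 0.1 FPKM in both groups. The highest genes of the other lists were LHX6 at 9.32 ± 1.20 and 9.56 ± 1.35 FPKM, SSBP4 at 41.8 ± 3.02 and 40.5 ± 6.41, DEAF1, a transcription factor that binds LMO4, at 17.3 ± 1.49 and 20.8 ± 1.40, and DVL1, a Wnt pathway protein, at 100.9 ± 16.4 and 104.0 ± 10.7. None of these 5 genes passed the test.

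LYL1, a close relative of TAL1 that can take its place beside LMO2, was listed at 58.2 ± 3.04 FPKM in U87MG-control and 60.2 ± 4.02 FPKM in U87MG-LMO2, and did not pass the test. That level is uncertain. The tables gave LYL1 a mean length near 3206 bases in U87MG-control, against 1490 bases for its longest coding transcript in GENCODE v29, and 5 of the 6 transcripts listed for it were predicted models. Its counts were not whole.

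Class II bHLH factors held both of the larger rises. TWIST1, a mesenchymal bHLH factor that pairs with E proteins, had 17.61, 17.80 and 15.89 FPKM in U87MG-control and 29.47, 24.12 and 28.03 FPKM in U87MG-LMO2. All U87MG-LMO2 values were above the controls, and TWIST1 rose by 0.74 ± 0.13 on the log2 scale (SE, edgeR adjusted p = 0.0188). MSC, a bHLH repressor of the same class, had 6.74, 3.94 and 3.6 FPKM in U87MG-control and 9.28, 8.85 and 12.07 FPKM in U87MG-LMO2. MSC rose by 1.14 ± 0.26 (SE, adjusted p = 0.0359). On the FPKM scale U87MG-LMO2 replicate 3 was highest for MSC and replicate 1 for TWIST1.

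RUNX1, a factor often bound beside the complex in blood cells, had 75.6, 70.7 and 74.7 CPM in U87MG-control and 86.7, 107.0 and 102.5 CPM in U87MG-LMO2. RUNX1 rose by 0.42 ± 0.11 on this count scale (SE, edgeR adjusted p = 0.0488). Per length the groups overlapped, with 20.82, 18.08 and 21.88 FPKM against 20.63, 25.45 and 21.78 FPKM, and limma on log2(FPKM + 1) gave 0.15 with an adjusted p of 0.466. The mean transcript length of RUNX1 was 3417 to 3916 bases in U87MG-control and 4174 to 4308 bases in U87MG-LMO2 (limma adjusted p = 0.310).

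LHX1, a LIM-homeodomain factor that can bind LDB1, fell by 1.42 ± 0.27 on the log2 scale (SE, edgeR adjusted p = 0.0216). It passed the filter on low counts only through the controls, so this call is no independent evidence. LHX1 was low throughout, with 19, 21 and 21 counts in U87MG-control and 9, 8 and 11 counts in U87MG-LMO2. IL6ST, which encodes gp130, the shared receptor subunit of the interleukin-6 cytokines, had 40.50, 29.40 and 34.56 FPKM in U87MG-control and 17.45, 17.83 and 22.62 FPKM in U87MG-LMO2. All 3 U87MG-LMO2 values were lower, and IL6ST fell by 0.73 ± 0.14 (SE, adjusted p = 0.0207). Of the kinases that act with gp130, JAK1 had a log2 fold change of -0.04 and JAK2 of -0.43, and neither passed the test. After the GC correction IL6ST was at -0.52 (adjusted p = 0.0945) and MSC at 1.02 (0.0516), both past the threshold no longer. With any 1 control or U87MG-LMO2 replicate 1 left out, 0 to 1 of these 5 genes passed, while all 5 kept their direction. Over all genes 102 to 177 were then called higher in place of 760. Leaving out U87MG-LMO2 replicate 2 gave 579 genes higher and 304 lower. Leaving out U87MG-LMO2 replicate 3 gave 1307 higher and 1102 lower, in place of 760 and 443.

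Genes were also ranked by their distance from LMO2, as a description with no test. The distance was not scaled to the size of a change, so it favours genes with large rises and does not compare patterns alone. The 3 genes with the smallest root mean square difference from LMO2 in centred log2 CPM over the 6 libraries were ELN, which encodes elastin, at 2.19, LOC100132287 at 2.36 and KRTAP1-5, a keratin-associated protein gene, at 2.70. ELN had 6, 22 and 16 counts in U87MG-control and 1305, 934 and 438 counts in U87MG-LMO2, LOC100132287 had 0, 0 and 0 against 45, 105 and 51, and KRTAP1-5 had 2, 3 and 1 against 49, 86 and 82. ELN was lowest among the U87MG-LMO2 libraries in replicate 3, where LMO2 was highest.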

How the data were processed

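The authors deposited 1 gene table per library. Its expected counts are estimates of reads per gene made by the authors, not normalized and in the layout of RSEM. Its FPKM values were scaled by the authors to mapped reads and to a length close to the mean transcript length, which the tables also give. The submitters' processing notes name Bowtie2, BWA and the build GRCh38.p12; versions and their roles are not given in the sources used here. The authors' comparison table holds group mean FPKM, a log2 ratio and a probability; only its symbols and means were used. Genes with no line were taken as 0, except 130 genes whose group mean did not match (tolerance 0.004 FPKM), 125 of them with no line in the U87MG-LMO2 replicate 3 table, which had 3 unreadable lines. These were not tested in the fits on all libraries. LDB2 was tested only in a fit that left out U87MG-LMO2 replicate 3.

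Expected counts were rounded and tested in edgeR 4.0.16 (filterByExpr, TMM, glmQLFit, glmQLFTest; 2-sided, without a block; R 4.3.3) on 16092 genes with Benjamini-Hochberg adjustment at 0.05, after a check on simulated data. Sums and ratios of FPKM were compared with exact permutation tests in SciPy 1.17.1. Alternatives used DESeq2 1.42.0 and limma 3.58.1. GC content came from GENCODE v29 and was known for 89.8% of tested genes. Replicates differed by more than sampling noise (chi-square per gene 2.27 to 54.4). The pairs with U87MG-LMO2 replicate 3 had 40.3 and 54.4, and replicates 1 and 2 of that group had 7.57. The pairs with U87MG-control replicate 1 had 10.8 and 10.2, and control replicates 2 and 3 had 2.27. All 10 genes were described. Of the partner lists, the genes past the threshold and the highest of each list were named, with JAK1, JAK2, GATA1, GATA2, ERG, FLI1 and KLF1 named after their values were seen. Members and lists were chosen with earlier results of these data known.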

Additional observations from a re-analysis of the deposited data

Results flagged for a closer look

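The LDB2 value of U87MG-LMO2 replicate 3 was 2.10 FPKM when worked back from the authors' group mean, against 0.57 to 1.23 FPKM in U87MG-control. It lies outside the library tables, which hold no line for LDB2 in that library. It entered no test across genes, but it is part of the LDB1 plus LDB2 sums and ratios. Groups of 3 libraries are too small for a test of single outlying libraries.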

How the results depend on the processing

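LMO2 had log2 fold changes of 7.67 to 10.0 in the 13 alternatives that kept it, and its ratio to LDB1 plus LDB2 stayed between 9.29 and 9.87 on the log2 scale. Both had to differ, as LMO2 was put in by the vector. A minimum of 10 counts in each of the 6 libraries removed LMO2, so 0 of the 10 genes were then called higher. Leaving out 1 library gave 1 to 2 members called higher, and 0 were called lower in any alternative. TCF4 was the second without U87MG-LMO2 replicate 3, where 1307 of 16392 genes were called higher, in place of 760 of 16092. Partner list calls were 0 to 3 higher and 0 to 3 lower with 1 library left out, 1 lower under that minimum and 1 lower after the GC correction. The numbers did not pair the libraries (correlations of deviations -0.117, -0.00342 and -0.0407). With the replicate block 1 partner list gene was called higher and 1 lower, and 387 and 189 of all genes in place of 760 and 443; with the block the log2 ratio of LMO2 to LDB1 plus LDB2 was 9.67.

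Values close to 0 changed sign. LDB1 was -0.0496 in limma on log2(FPKM + 1) and -0.0502 with 0.1, -0.17 after the GC correction, and -0.13 to 0.14 with 1 library left out. TCF3 was -0.0204 and -0.0207 in limma, -0.19 after the GC correction and -0.0512 to 0.0787 with 1 library left out, and SSBP3 was -0.0759 to 0.0489. The log2 sum of LDB1 and LDB2 was 0.0059 on the CPM scale with LDB1 alone and -0.145 to 0.0718 with 1 library left out, and that of SSBP2 and SSBP3 was 0.037 on the CPM scale. For these the cause was not tested. SSBP2, LMO4 and TCF12 stayed above 0 and did not pass the threshold in any of the 14 alternatives each (lowest adjusted p 0.0601, 0.196 and 0.0902). The GC correction, LDB1 alone, the coding length and the length column were chosen after seeing the data. With 3 libraries a group the exact tests cannot go below 0.1, and TAL1 is limited by depth.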
